A study of Mus musculus with 4 samples.

Results

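The genes described here are 10 effectors of the ATF4 and CHOP stress response, chosen by name among the 19074 genes listed in the deposited tables: Atf4, Ddit3, Atf3, Atf5, Trib3, Chac1, Ppp1r15a, Nupr1, Gdf15 and Eif4ebp1. They were measured in pancreatic islet cells of C57BL/6 mice with 10x Genomics single-cell 3′ libraries, and each captured RNA molecule is counted once by its unique molecular identifier (UMI). There were 2 wild type libraries, from Sel1Lf/f mice that carry floxed Sel1L alleles, and 2 knockout libraries, from Sel1LIns1 mice in which Cre is expressed from Ins1. SEL1L is the adaptor of the HRD1 ubiquitin ligase in endoplasmic reticulum (ER) associated degradation, which clears misfolded proteins from the ER, and the series title asks what this pathway does for beta cell identity and function. A control with Cre and intact Sel1L was not among the samples, so what Cre does and what losing Sel1L does cannot be told apart. The mice were 7 weeks old by the samples' labels but 5 weeks old by the series text. All islets were kept overnight in RPMI medium, labelled as 11 mM without naming the solute, and dissociated with trypsin. The labels do not say whether the libraries of a genotype came from separate animals, so every p-value measures only the spread between 2 libraries a group. An exact permutation test of 2 against 2 cannot give a p below 0.33 and was not used for single genes.

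When unfolded protein, lack of amino acids or other stress activates a kinase of the translation factor eIF2α, general protein synthesis slows while the Atf4 messenger is translated better. ATF4 protein then switches on genes for amino acid supply and for further regulators, among them Ddit3, the gene of CHOP. Because this step is translational, the level of Atf4 RNA is not a measure of ATF4 protein. Beta cells make large amounts of proinsulin in the ER, and the PERK branch of this response, in which the ER membrane kinase PERK phosphorylates eIF2α, is known for its importance in them.

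The promoters of several members carry the composite site bound by C/EBP and ATF proteins, written TGATGNAA or TTNCATCA on the opposite strand. The windows below show where it lies, because the members that hold it did not move together in the comparison that follows. Promoter windows from RefSeq (GRCm38.p6, 250 bases before to 50 after each transcription start) were found for 9 of the 10 members, in 11 windows. The site was present in windows of 4 of these 9, Atf3, Chac1, Nupr1 and Trib3, against 3.97% of all 32817 windows. Here and below members are counted as genes and the background as windows, so the units differ. Sites outside a window are missed. The 250 bases before the start are printed 5′ to 3′ in the direction of transcription, with the site in capitals.
Atf3, chr1:191183334-191183583, minus strand: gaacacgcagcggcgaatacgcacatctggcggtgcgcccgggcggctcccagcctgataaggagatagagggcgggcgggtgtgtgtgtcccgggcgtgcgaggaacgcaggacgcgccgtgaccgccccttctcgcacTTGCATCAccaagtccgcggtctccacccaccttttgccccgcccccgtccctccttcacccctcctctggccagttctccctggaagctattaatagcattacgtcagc
Chac1, chr2:119350992-119351241, plus strand: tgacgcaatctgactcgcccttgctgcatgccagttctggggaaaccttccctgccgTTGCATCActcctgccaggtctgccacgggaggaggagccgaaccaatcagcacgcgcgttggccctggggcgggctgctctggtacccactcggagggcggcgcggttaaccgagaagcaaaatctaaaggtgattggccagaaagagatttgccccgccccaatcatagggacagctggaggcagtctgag
Nupr1, chr7:126625471-126625720, minus strand: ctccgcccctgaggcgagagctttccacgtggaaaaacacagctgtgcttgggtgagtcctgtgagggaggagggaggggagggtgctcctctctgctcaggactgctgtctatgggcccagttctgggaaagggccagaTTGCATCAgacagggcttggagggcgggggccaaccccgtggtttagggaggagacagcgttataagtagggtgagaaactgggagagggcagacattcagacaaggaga
Ppp1r15a, chr7:45526269-45526518, minus strand: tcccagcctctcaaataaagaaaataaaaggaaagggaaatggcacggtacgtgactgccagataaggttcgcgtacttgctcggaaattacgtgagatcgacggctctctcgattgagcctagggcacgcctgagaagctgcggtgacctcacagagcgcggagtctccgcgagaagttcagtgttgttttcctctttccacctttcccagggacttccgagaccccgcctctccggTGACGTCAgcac
Relative to the start, the capitals begin at -110 in Atf3, at -193 in Chac1 and at -110 in Nupr1, and the Trib3 match lies after the start, at 14. The Ppp1r15a window is shown for its cAMP response element, TGACGTCA, at -12, which 1 member and 1.79% of all windows held. The ER stress response element, CCAAT followed by any 9 bases and then CCACG, was in the window of 0 members and in 0.119% of all windows, both strands being searched for each motif. A match is only a run of letters, and no binding was measured here.

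The 4 libraries held between 2483 and 5951 cells, with library medians of 34578 to 40121 UMIs a cell. Cells were classed by the share of their UMIs from hormone genes: beta cells with at least 10% from Ins1 and Ins2, and alpha and delta cells with at least 3% from Gcg or from Sst and under 5% from insulin. This gave 11363 beta cells (3766 and 3707 wild type, 2491 and 1399 knockout), 3181 alpha and 1539 delta cells. Insulin made up a median of 68.0% and 68.6% of the UMIs of a wild type beta cell, against 39.6% and 43.7% in knockout, and this difference sets how every other gene is scaled. Of 8 beta cell markers tested in these cells, 8 fell and 0 rose (also at an unadjusted p under 0.05 and by DESeq2), Mafa by 3.31 on the log2 scale. Of all genes tested, 20.1% were called lower and 19.5% higher. With library size only, 5 of the markers were called lower and 0 higher, beside 1.83% and 83.4% of all genes. The markers include Ins1 and Ins2, which define the class. Pairs of libraries shared 1 to 9 cell barcodes. Sel1l itself was at 1.63 and 1.69 UMIs per wild type beta cell and at 2.04 and 2.38 in knockout, while relative to other genes it fell by 0.50 on the log2 scale (SE 0.0608, edgeR adjusted p = 0.00144). 3′ reads can lie outside the deleted part of a floxed gene, so this level checks nothing about the deletion.

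In beta cells the members split. Relative to the other genes (UMIs summed per library and class, scaled by the TMM method and compared with edgeR's quasi-likelihood test), Nupr1, Gdf15, Ddit3 and Trib3 rose, and Atf4, Chac1, Eif4ebp1 and Ppp1r15a fell. Atf3 and Atf5 did not pass an adjusted p of 0.05. Those 8 calls among 10 members stand beside calls for 39.5% of the 15216 genes tested, 19.5% higher and 20.1% lower. The median change was -0.14 for the members and 0.00 for all genes on the log2 scale. Normalised CPM (UMIs per 1000000 of the TMM-scaled library size) of all 10 members did not overlap between the genotypes, which was also true of 73.3% of all genes.

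Per cell the picture is one-sided. When the sums were scaled by the number of cells, 8 of the 10 members were called higher and 0 lower by edgeR, beside 86.0% of all genes called, 84.0% higher and 1.98% lower, and the median gene was 0.91 higher on the log2 scale. On that scale the members that fell relative to other genes were at 0.45 (Atf4), 0.23 (Chac1), 0.52 (Ppp1r15a) and 0.28 (Eif4ebp1), all below the median gene. With library size only, the median gene was 0.90 higher, and 9 of 10 members were called higher and 0 lower, beside 85.2% of all genes called, 83.4% higher and 1.83% lower. A fall of a member in beta cells below is therefore a fall relative to the median gene. Knockout beta cells held more UMIs per cell of each member called lower. Alpha, delta and endothelial cells and macrophages had higher median UMIs in knockout. In alpha cells the medians went from 17704 and 18848 to 26061.5 and 26714. Beta cell medians, with insulin, overlapped (46909.5 and 49861 against 44119 and 51345). The median mitochondrial share went from 1.74% and 1.70% to 3.65% and 3.58% in beta cells. In alpha cells it went from 2.48% and 2.47% to 3.72% and 3.75%. More UMIs per cell alone therefore do not set beta cells apart.

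**Figure D1:**
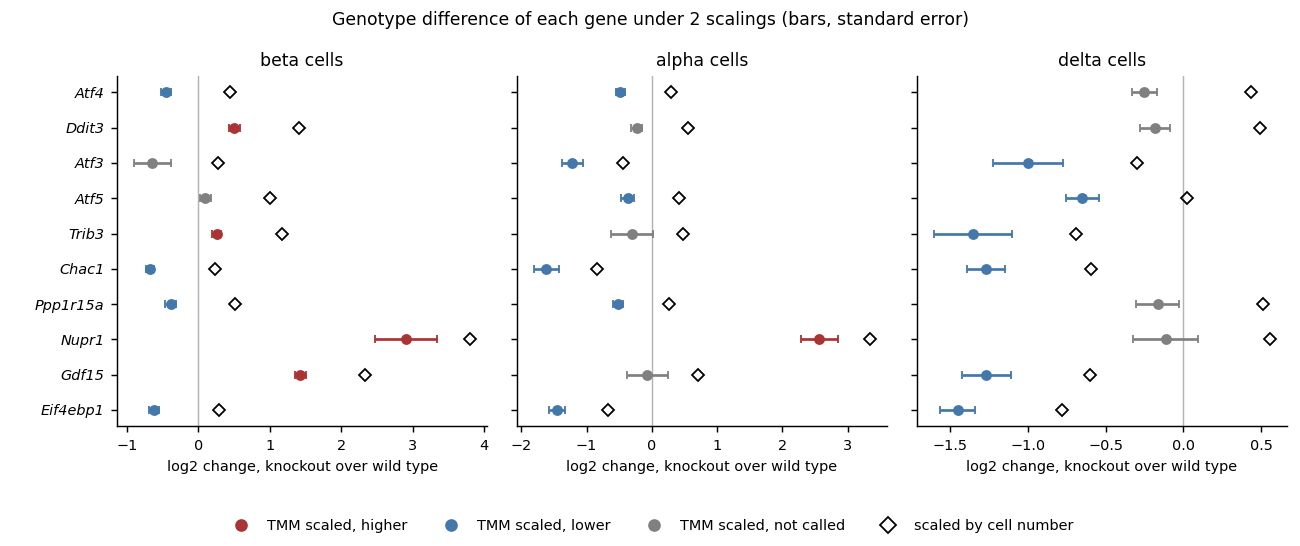
Log2 change, knockout over wild type, of the 10 genes (rows) in beta, alpha and delta cells (panels, each with its own x axis). Filled points with bars are TMM-scaled changes with their standard errors, coloured by call, and open diamonds are changes scaled by cell number; in beta cells all 10 diamonds lie right of 0, while Atf4, Atf3, Chac1, Ppp1r15a and Eif4ebp1 lie left of it when TMM scaled.

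Atf4 (ENSMUSG00000042406 in GENCODE vM21; chromosome 15, 80255184 to 80257541 on GRCm38, plus strand, 3 exons) encodes the factor at the head of the pathway. Its mean was 5.72 and 6.19 UMIs per wild type beta cell and 7.82 and 8.42 per knockout beta cell. In normalised CPM the order turned, from 157.7 and 167.7 to 119.9 and 117.3, a log2 change of -0.46 (SE 0.0686, edgeR adjusted p = 0.00304). The groups did not overlap on either scale, and the direction differed between them.

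Ddit3 (chromosome 10, 127290774 to 127296288, plus strand, 4 exons) encodes CHOP, the factor tied to cell death under lasting ER stress. It had 1.92 and 2.19 UMIs per wild type beta cell and 5.30 and 5.59 in knockout, a ratio of the genotype means of 2.65. Normalised CPM went from 52.9 and 59.4 to 81.3 and 77.9, a log2 change of 0.50 (SE 0.0763, edgeR adjusted p = 0.00310). Ddit3 was thus higher in both knockout libraries on both scales. A second, shorter entry named Ddit3 overlaps it in the annotation, and the table holds 1 row of that name.

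Nupr1 (chromosome 7, 126623249 to 126630861, minus strand, 3 exons) encodes a small chromatin-associated protein induced by many stresses and by ATF4. It had 2.21 and 6.07 UMIs per wild type beta cell and 48.0 and 67.7 in knockout, or 60.9 and 164.3 against 736.4 and 943.8 normalised CPM. The log2 change was 2.90 (SE 0.434, edgeR adjusted p = 0.00298), and the ratio of UMIs per cell was 14.0. The 2 wild type libraries differed from each other more than for any other member, so that the change was 2.35 without wild type replicate 1 and 3.78 without wild type replicate 2.

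Atf5, the gene of an ATF4-related factor that promotes beta cell survival, and Atf3, the gene of an early stress factor that can repress transcription, were the 2 members not called. Atf5 (chromosome 7, 44812256 to 44816658, minus strand) had 5.49 and 6.22 UMIs per wild type cell and 11.0 and 12.4 in knockout, but 151.5 and 168.5 against 168.7 and 173.4 normalised CPM (log2 change 0.10, SE 0.0779, edgeR adjusted p = 0.362). Atf3 (chromosome 1, 191170296 to 191218039, minus strand) was sparse, at 0.148 and 0.207 UMIs per wild type cell and 0.152 and 0.285 per knockout cell. It was the only member whose UMIs per cell overlapped between the genotypes. Its log2 change was -0.64 (SE 0.260, edgeR adjusted p = 0.0929), and it passed the threshold without wild type replicate 1 (-0.86, edgeR adjusted p = 0.0474) and without knockout replicate 2 (-1.05, edgeR adjusted p = 0.0160).

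The feedback members went in different directions. Trib3 (chromosome 2, 152337422 to 152344032, minus strand) encodes a pseudokinase that is a CHOP target and restrains ATF4 and AKT. It rose from 1.17 and 1.27 to 2.53 and 2.94 UMIs per cell and from 32.4 and 34.3 to 38.7 and 40.9 normalised CPM. Its log2 change of 0.26 (SE 0.0639, edgeR adjusted p = 0.0197) was the smallest that passed, and it missed the threshold without knockout replicate 1 (0.31, edgeR adjusted p = 0.0543) and without knockout replicate 2 (0.23, edgeR adjusted p = 0.136). Ppp1r15a (chromosome 7, 45522916 to 45526268, minus strand) encodes GADD34, the phosphatase subunit that takes the phosphate off eIF2α and lets translation resume. It had 1.27 and 1.46 UMIs per wild type cell and 1.81 and 2.11 in knockout, with normalised CPM of 35.0 and 39.6 against 27.7 and 29.4. The log2 change was -0.39 (SE 0.0773, edgeR adjusted p = 0.00883), and it was -0.33 without knockout replicate 1 (edgeR adjusted p = 0.0646). Eif4ebp1 (chromosome 8, 27260329 to 27276674, plus strand) encodes 4E-BP1, which holds back cap-dependent translation and is an ATF4 target in beta cells. It had 3.71 and 3.91 UMIs per wild type cell and 4.52 and 4.74 in knockout. In normalised CPM it fell from 102.4 and 105.9 to 69.4 and 66.1, a log2 change of -0.62 (SE 0.0647, edgeR adjusted p = 0.000866).

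Chac1 (chromosome 2, 119351229 to 119354381, plus strand) encodes an enzyme that breaks down glutathione and is a target of ATF4. Its UMIs per cell differed least, from 1.64 and 1.70 in wild type to 1.89 and 2.03 in knockout. In normalised CPM it went from 45.2 and 46.1 to 28.9 and 28.3, and its log2 change of -0.67 (SE 0.0571, edgeR adjusted p = 0.000443) was the lowest among called members. Gdf15 (chromosome 8, 70629393 to 70632456, minus strand) encodes a secreted stress hormone that acts on the hindbrain to reduce food intake. It rose from 0.289 and 0.333 to 1.46 and 1.67 UMIs per cell, a ratio of 5.04. Normalised CPM went from 7.97 and 9.02 to 22.4 and 23.3 (log2 change 1.43, SE 0.0762, edgeR adjusted p = 0.000123). Chac1 and Nupr1, which both hold the C/EBP and ATF site printed above, thus lay at opposite ends of the members.

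**Figure D2:**
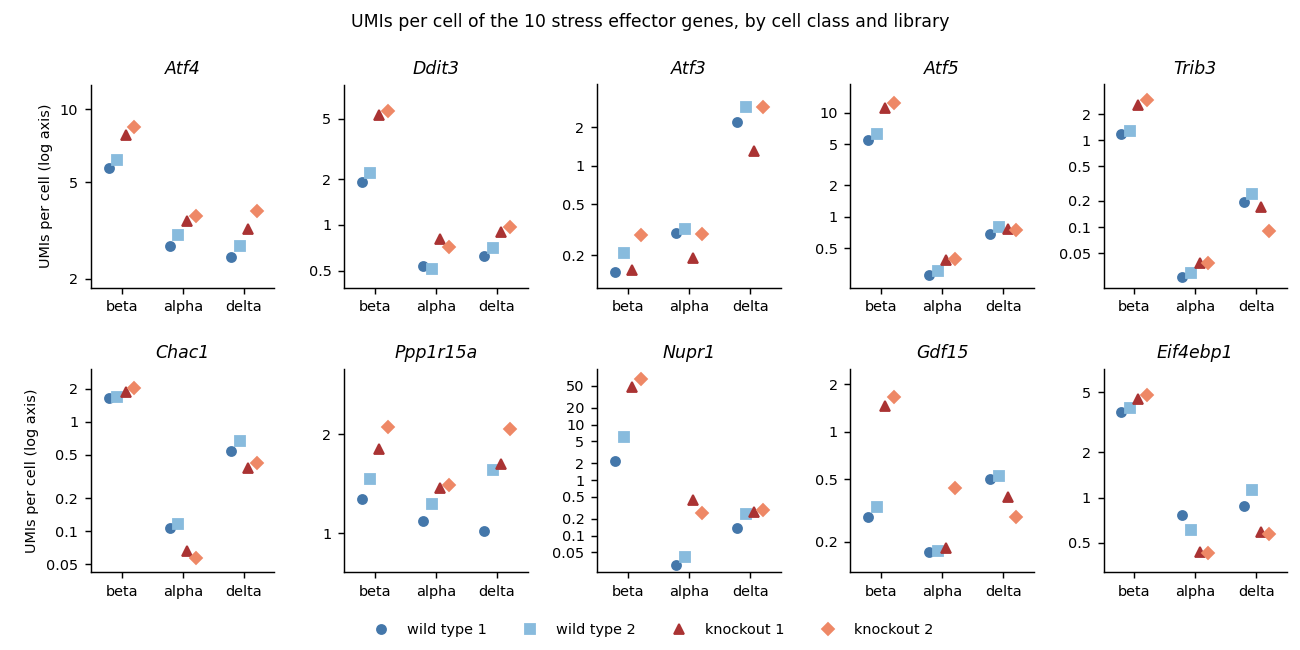
Mean UMIs per cell (log axis, own range in each panel) of each gene in the 4 libraries, by cell class. Circles and squares are wild type and triangles and diamonds knockout libraries; Nupr1 in beta cells lies at 2.21 and 6.07 in wild type and at 48.0 and 67.7 in knockout.

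Alpha and delta cells, in which Cre expressed from Ins1 is not designed to act, gave another pattern. Of the 10 members, 1 rose, 6 fell and 3 were not called in alpha cells, where 13.7% of 12944 genes were called (5.34% higher, 8.41% lower). In delta cells 0 rose, 6 fell and 4 were not called, beside 6.69% of 11722 genes (2.46% higher, 4.23% lower). At an unadjusted p under 0.05 there were 8 members in alpha cells and 7 in delta cells, 0 of the latter higher, and DESeq2 called 0 higher in either class but gave no adjusted p for 6 and 5 of the members. The median change of the members was -0.42 in alpha and -0.83 in delta cells, against 0.01 for all genes in both. Scaled by cell number, 6 members were called higher and 3 lower in alpha cells, beside 86.1% of genes called, 85.9% higher and 0.232% lower. In delta cells 4 were higher and 4 lower on that scale, beside 76.3% of genes called, 76.0% higher and 0.290% lower.

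Eif4ebp1 and Chac1 fell in both classes. Eif4ebp1 had 0.765 and 0.608 UMIs per wild type alpha cell and 0.438 and 0.428 in knockout (log2 change -1.45, SE 0.124, edgeR adjusted p = 0.00105). In delta cells it went from 0.885 and 1.11 to 0.591 and 0.576 (log2 change -1.45, SE 0.113, edgeR adjusted p = 8.4e-05). These levels per cell did not overlap and were lower in knockout, unlike in beta cells. Chac1 went from 0.108 and 0.116 to 0.0661 and 0.0569 UMIs per alpha cell (log2 change -1.61, SE 0.195, edgeR adjusted p = 0.00534). In delta cells it went from 0.541 and 0.665 to 0.383 and 0.420 (log2 change -1.27, SE 0.121, edgeR adjusted p = 0.000465).

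Atf4 and Ppp1r15a fell in alpha cells relative to other genes by 0.48 and 0.52 on the log2 scale (edgeR adjusted p = 0.00991 and 0.00979), although both had more UMIs per cell in knockout. Without knockout replicate 1 neither passed (edgeR adjusted p = 0.0527 and 0.0534). Atf5 fell in alpha cells by 0.37 (edgeR adjusted p = 0.0377) and missed the threshold without any 1 of the 4 libraries, with edgeR adjusted p from 0.0681 to 0.137. In delta cells Atf4 was at -0.25 and Ppp1r15a at -0.17 (edgeR adjusted p = 0.0835 and 0.492), and Atf5 fell by 0.65 (edgeR adjusted p = 0.00900). Ddit3 was called in neither class, at -0.23 in alpha cells (edgeR adjusted p = 0.112) and -0.18 in delta cells (edgeR adjusted p = 0.269).

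Atf3 fell in alpha cells by 1.22 (edgeR adjusted p = 0.00781), from 0.298 and 0.318 to 0.189 and 0.290 UMIs per cell. Delta cells held more of it, with 2.19 and 2.89 UMIs per wild type cell and 1.30 and 2.87 in knockout. There the groups overlapped per cell, and the log2 change of -1.003 (edgeR adjusted p = 0.0287) was -0.87 without wild type replicate 2 (edgeR adjusted p = 0.114). Trib3 was sparse in alpha cells, at 0.0266 to 0.0389 UMIs per cell, and not called (-0.31, edgeR adjusted p = 0.562). It fell in delta cells by 1.35 (edgeR adjusted p = 0.0159), from 0.193 and 0.238 to 0.169 and 0.0909 UMIs per cell, but was at -1.28 with an edgeR adjusted p of 0.0668 without wild type replicate 2.

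Nupr1 was the member that rose in alpha cells, from 0.0293 and 0.0411 to 0.431 and 0.254 UMIs per cell (log2 change 2.57, SE 0.279, edgeR adjusted p = 0.00390). These levels were under 1% of those in knockout beta cells in each library. Taking all insulin UMIs in alpha cells as free RNA from beta cells, and Nupr1 in the same ratio to insulin as in beta cells, free RNA would give 0.150 and 0.166 UMIs per knockout alpha cell, which is 34.7% and 65.3% of the level seen. In wild type alpha cells that share was 22.5% and 49.3%. Possible doublets were marked by a second hormone, by markers of a non-endocrine cell type or by very high UMI totals. In knockout replicate 1, 54 such cells held 147 of the Nupr1 UMIs, 85 of them in a single cell. Without such cells the log2 change was 2.33. In delta cells Nupr1 was at 0.139 and 0.240 UMIs per wild type cell and 0.269 and 0.294 per knockout cell, with a log2 change of -0.11 (edgeR adjusted p = 0.775).

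Gdf15 in alpha cells turned on a few cells. It was at 0.171 and 0.176 UMIs per wild type alpha cell and at 0.183 and 0.437 in knockout, with a log2 change of -0.07 (edgeR adjusted p = 0.910). In knockout replicate 2, 26 possible doublets held 128 Gdf15 UMIs, 114 of them in a single cell, while the other 308 alpha cells held 18. Without possible doublets Gdf15 fell by 1.66 (edgeR adjusted p = 0.00166). In delta cells, where it fell by 1.27 (edgeR adjusted p = 0.00330), it had 0.502 and 0.522 UMIs per wild type and 0.383 and 0.286 per knockout cell.

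The change in beta cells was set against that in alpha cells and in delta cells, with the library as a block. For beta against alpha, 6 of the 10 members differed, all more positive in beta cells, beside 22.5% of 14956 genes (11.3% more positive, 11.1% less). For beta against delta, 8 differed the same way, beside 16.4% of 14853 genes (8.56% more positive, 7.86% less). Gdf15 differed by 1.56 (SE 0.267) from alpha and 2.71 (SE 0.168) from delta cells, and Ddit3 by 0.76 (SE 0.101) and 0.70 (SE 0.0882). Nupr1 differed by 2.98 (SE 0.219) from delta cells, while its difference from alpha cells, 0.29, had an edgeR adjusted p of 0.691, and was 1.08 without knockout replicate 1 (edgeR adjusted p = 0.0174). The difference for Atf4 between beta and alpha cells was 0.04 (SE 0.0678, edgeR adjusted p = 0.733). The rest of these differences are given among the flagged results.

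The classes also differed in their levels. As CPM of UMIs from genes other than the hormones, Atf5 was at 352 and 374 in wild type beta cells and at 22.5 and 24.6 in wild type alpha cells. Trib3 was at 75.3 and 76.1 in wild type beta cells. Atf3 was lowest in beta cells (9.52 and 12.5 in wild type), higher in alpha cells (24.2 and 25.8), then in endothelial (203 and 140) and delta cells (204 and 245), and highest in macrophages (662 and 530). In knockout the ranges of endothelial and delta cells overlapped (136 and 150 against 80.9 and 166). So did those of beta and alpha cells (5.46 and 9.58 against 9.15 and 14.8). Beta cells had Gdf15 at 18.5 and 20.05 without and at 52.6 and 56.2 with the knockout, all below its 118 to 182 in endothelial cells and 129 to 232 in macrophages. Atf4 was at 608 to 628 in endothelial cells of all 4 libraries, against 367 and 373 in beta cells of the wild type and 282 and 283 in those of the knockout.

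Single beta cells were compared after thinning each to 5000 UMIs, which left out 16, 6, 28 and 25 shallower cells of the 4 libraries in the order wild type 1, wild type 2, knockout 1, knockout 2. Values for the 4 libraries keep this order from here on. At least 1 Nupr1 UMI was found in 12.3%, 23.6%, 82.8% and 86.0% of cells, and without thinning in 32.5%, 51.3%, 94.4% and 96.1%. Ddit3 was found in 16.9%, 17.0%, 40.1% and 36.9%, and Gdf15 in 2.56%, 2.92%, 13.6% and 14.5%. The knockout shares of these 3 genes lay above those of wild type, as did those of every other member except Atf3. For how many of all genes this held was not computed. Atf3 was found in 1.17%, 1.68%, 1.22% and 2.04% of cells, and these overlapped.

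A cell thinned to a fixed total holds fewer UMIs of other genes the more insulin it has, so the shares were also computed without the hormone genes, at 3000 UMIs a cell. Nupr1 was then in 18.0%, 32.2%, 83.0% and 87.5% of cells and Ddit3 in 25.7%, 27.1%, 39.7% and 40.9%, again higher in knockout. Atf4 turned from 43.2%, 42.6%, 55.1% and 51.6% with hormones to 62.1%, 63.0%, 53.4% and 54.1% without them. Eif4ebp1 (30.6%, 27.9%, 36.9% and 34.6% with, 45.2%, 45.5%, 35.9% and 34.9% without) turned in the same way. The order of the genotypes thus followed the denominator for these genes and not for Nupr1 and Ddit3.

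Free RNA gives UMIs in cells that do not make a gene. For comparison, endothelial cells had 0.383, 0.506, 0.543 and 0.254 Nupr1 UMIs per cell and macrophages 0.142, 0.0609, 0.369 and 0.390. Stromal cells had 3.51, 3.03, 5.93 and 3.28. Knockout beta cells, at 48.0 and 67.7, lay far above all of these, but wild type beta cells, at 2.21 and 6.07, overlapped with stromal cells. Relative to insulin UMIs, endothelial cells and macrophages held more Nupr1 than beta cells in every library. At the insulin ratio, free RNA from beta cells would thus give only part of their Nupr1. These classes are therefore no measure of free RNA alone. Free RNA at the insulin ratio would give 13.1% to 20.3% of the Trib3 seen in alpha cells and at most 8.96% of each other member except Nupr1.

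The rise of Nupr1 was spread over most knockout beta cells. At least 10 Nupr1 UMIs were found in 6.35%, 16.5%, 79.0% and 83.6% of beta cells, and the medians were 0, 1, 32 and 45 UMIs. The top 10% of cells held 75.9%, 66.1%, 36.5% and 36.0% of the Nupr1 UMIs, a larger share in wild type. Gdf15 was held by few cells in wild type, where the top 10% of cells had 96.7% and 95.3% of its UMIs, against 54.1% and 49.98% in knockout. Such shares rise as a gene gets sparser. Unthinned, Gdf15 was found in 11.0%, 11.6%, 43.5% and 46.4% of beta cells, so the contrast partly restates its level. For Atf4 the top 10% held 24.2% to 24.4% in every library.

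**Figure D3:**
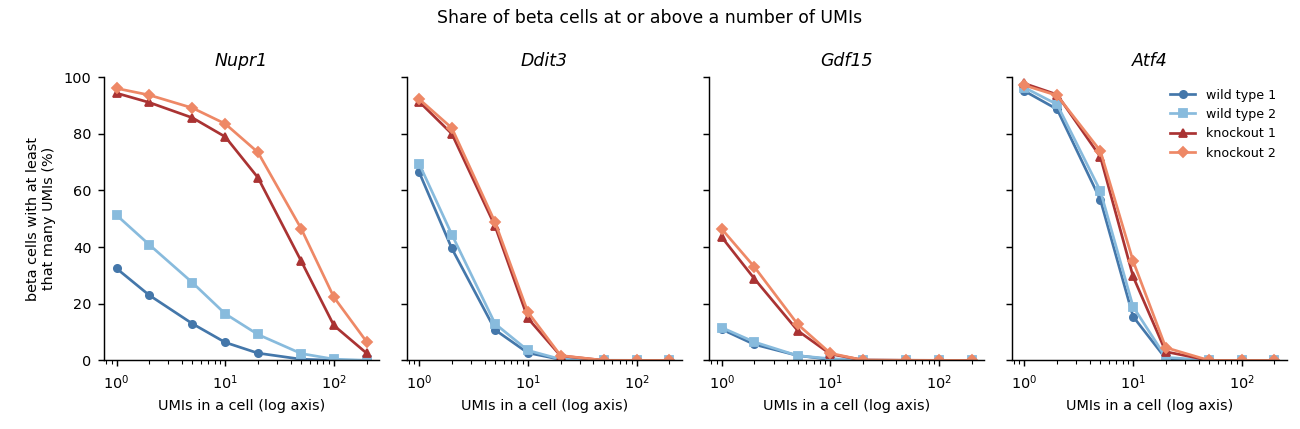
Share of beta cells (y axis, %) with at least a given number of UMIs (x axis, log) of Nupr1, Ddit3, Gdf15 and Atf4, unthinned, 1 line per library. At 10 UMIs the Nupr1 lines stand at 6.35% and 16.5% in wild type and at 79.0% and 83.6% in knockout.

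More of the members were detected per knockout beta cell, though not every member was found more often. Of the 10, a thinned beta cell held at least 1 UMI of 1.85, 1.94, 3.52 and 3.47 on average, and with the hormones left out of 2.77, 2.97, 3.47 and 3.60. No member was found in 16.8% and 16.5% of wild type and 2.52% and 3.49% of knockout cells. At least 5 were found in 4.03% and 4.84% of wild type and in 28.4% and 27.4% of knockout cells. With the hormones left out the gaps were smaller: no member was found in 7.41% and 5.85% of wild type and 2.68% and 2.11% of knockout cells, and at least 5 in 14.9% and 18.9% against 25.0% and 27.5%. On both counts the genotypes did not overlap, and the same was not computed for other sets of genes. Nupr1 is part of every count, and no count was made without it. A gain across the other members is therefore not shown. With the hormones left out, Nupr1 alone was found in 18.0%, 32.2%, 83.0% and 87.5% of cells. Ddit3, Atf5, Trib3 and Gdf15 were also found in more knockout cells, and Atf4, Chac1, Ppp1r15a and Eif4ebp1 in fewer. Unthinned beta cells held a median of 4084, 4144, 5458 and 5724 genes, so unthinned detection rose in general. The number of genes per thinned cell, with or without the hormones, was not computed.

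Whether members shared cells beyond their own frequencies was read from the ratio of cells with both genes to the number that independent genes would give. Over the 45 pairs the median ratio was 1.21, 1.27, 1.10 and 1.11, and 43, 43, 42 and 40 pairs were above 1. With the hormones left out the median ratio was 1.19, 1.18, 1.10 and 1.08. The ratios were therefore closer to 1 in knockout, where single members were found more often. A ratio cannot exceed 1 divided by the share of cells with the commoner gene. The ratios thus cannot show whether members were less linked in knockout. Cells of a library share free RNA and differ in insulin share, whose part in these ratios was not tested, and the ratios are given as a description.

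Ddit3 and Trib3, a factor and its target, had ratios of 1.39, 1.68, 1.28 and 1.32. Trib3 and Gdf15 had 2.32 and 3.09 in wild type, on 22 and 35 cells with both, and 1.45 and 1.17 in knockout, on 106 and 48 cells. Trib3 and Chac1 stayed at 1.40, 1.69, 1.30 and 1.42. Ddit3 and Ppp1r15a had 1.47, 1.38, 1.03 and 1.10, and Ddit3 and Nupr1 1.62, 1.37, 1.08 and 1.06. Both pairs were nearer 1 in knockout than in wild type. With Nupr1 in 82.8% and 86.0% of thinned knockout cells, its ratios had little room above 1. Pearson's r of log-scaled UMIs across beta cells was 0.175, 0.225, 0.393 and 0.389 for Ddit3 and Nupr1. For Ddit3 and Ppp1r15a it was 0.264, 0.297, 0.130 and 0.0705. Sparse counts hold r down. The median count per cell was 0, 1, 32 and 45 for Nupr1 and 1, 1, 4 and 4 for Ddit3. The values of r thus cannot show a change in linkage either. Pairs with Atf3 rest on few cells.

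**Figure D4:**
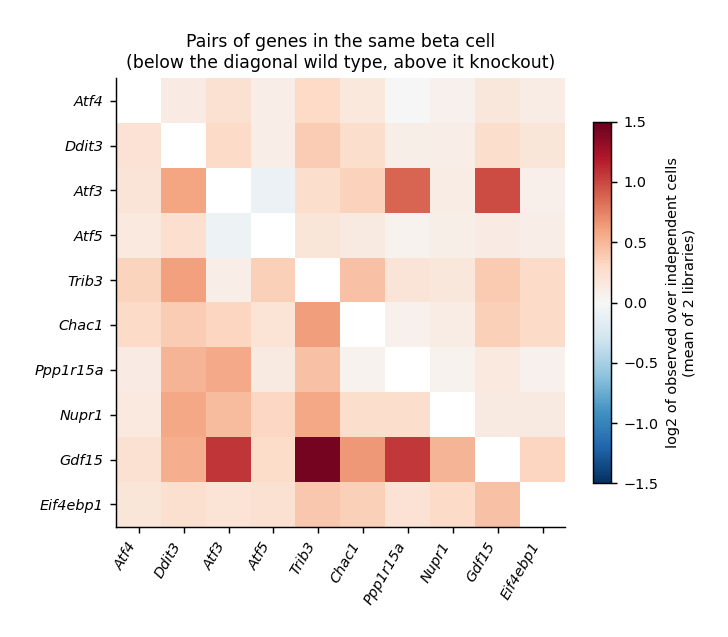
Log2 of the observed over the independent number of thinned beta cells with both genes (colour, mean of 2 libraries), wild type below and knockout above the diagonal. Trib3 with Gdf15 is darkest below the diagonal, and most squares above it are paler.

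Levels were then read by the insulin share of the beta cell, as CPM of UMIs from genes other than the hormones. In cells with 10% to 40% insulin Nupr1 was at 48.3, 84.0, 1692 and 2356, and with 55% to 70% at 162, 406, 1338 and 1396. Ddit3 was at 99.5, 122, 192 and 203 and at 137, 148, 172 and 160 in the same bins. Gdf15 was at 8.91, 31.3, 54.8 and 60.9 and at 23.4, 23.8, 41.6 and 34.1. Knockout was higher than wild type for all 3 genes in both bins. Trib3, at 50.5, 26.4, 98.7 and 116.8 in the low bin, was at 81.2, 86.7, 52.6 and 58.4 in the high one, so the order of the genotypes turned. The bins are uneven: the low one held 112, 42, 1273 and 530 cells and the high one 2148, 2159, 181 and 181.

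Over cells with 40% to 70% insulin in both genotypes, the log2 change was 2.84 for Nupr1, 1.12 for Gdf15 and 0.38 for Ddit3, and all 3 were called. Trib3 was at 0.04 (edgeR adjusted p = 0.655) there, and Atf3 fell by 0.94 (edgeR adjusted p = 0.0292).

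**Figure D5:**
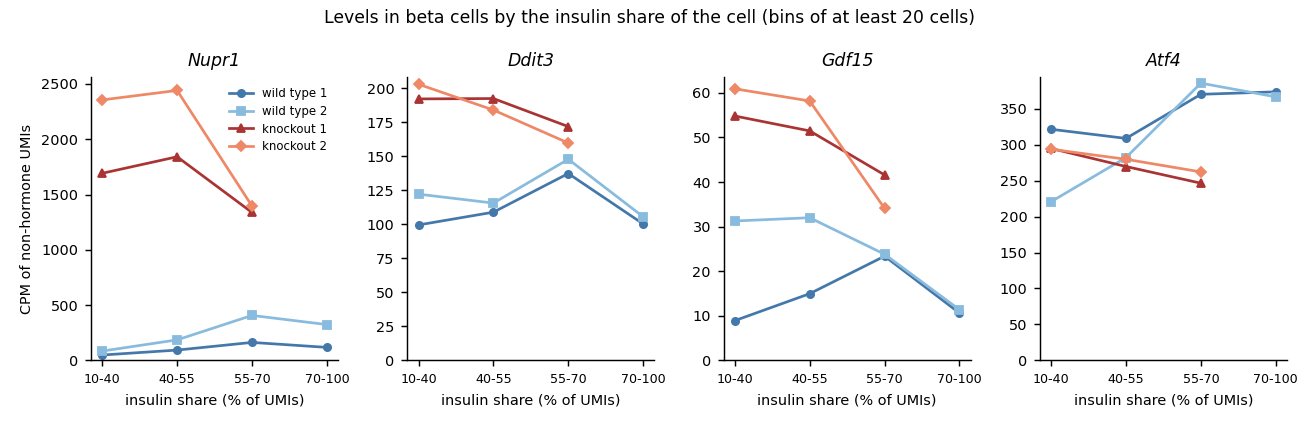
CPM of non-hormone UMIs (y axis) of Nupr1, Ddit3, Gdf15 and Atf4 in beta cells binned by the insulin share of their UMIs (x axis, %), 1 line per library, bins of at least 20 cells. The knockout lines for Nupr1, Ddit3 and Gdf15 lie above both wild type lines in every bin they share.

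Nupr1 was also higher in knockout among beta cells marked by a thinned UMI of Mafa, the beta cell factor. In these it was at 130, 322, 1529 and 2013 CPM of non-hormone UMIs, and at 155, 410, 1754 and 2318 in beta cells with no Mafa UMI. In knockout cells with Neurog3, a progenitor gene, it was at 1294 and 2017 against 1745 and 2281 without it, on 93 and 43 cells.

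The genes most like a member across beta cells were ranked by Pearson's r of log-scaled UMIs, as the mean over the 2 libraries of a genotype, among 4359 genes. All cells of a library share its depth and free RNA, so these values only describe. In wild type, Eif4ebp1 was most like Asns (0.493), Psph (0.471) and Mthfd2 (0.463), which encode enzymes of asparagine, serine and folate metabolism. In knockout, Nupr1 was most like Gnai2 (0.504), Cox6a2 (0.469) and Trib3 (0.466). Ddit3 was most like Trib3 (0.462), Nupr1 (0.391) and Atf4 (0.388).

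Other genes of the pathway, from lists chosen with earlier results known, were also called in both directions. The counts in beta cells below stand beside the 19.5% of all genes called higher and the 20.1% called lower there. Of 13 genes for eIF2α kinases and translation control, 4 rose, 5 fell and 4 were not called in beta cells, with a median of -0.07. Eif2ak3, the gene of PERK, rose by 0.79 (SE 0.0664, edgeR adjusted p = 0.000439), from 10.00 and 10.7 to 18.3 and 17.3 normalised CPM. Dnajc3, a PERK inhibitor of the ER, rose by 1.06, and Eif2b2 by 0.34. Eif2s1, the gene of eIF2α itself, fell by 0.59, Eif2b3 by 0.43 and Eif2b5 by 0.30.

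Of 31 other ATF4 and CHOP targets, 9 rose, 12 fell and 10 were not called (median -0.16). Stc2, the gene of a secreted glycoprotein, rose by 3.55, from 0.0806 and 0.161 to 1.45 and 1.39 normalised CPM. Txnip, which inhibits thioredoxin, rose by 1.73 and Klhl24 by 0.73. Psph fell by 1.86 (SE 0.0833, edgeR adjusted p = 7.22e-05), from 71.1 and 81.2 to 20.5 and 21.6 normalised CPM, Shmt2 by 0.99 and Mthfd2 by 0.70. Scaled by cell number, Psph was still called lower, at -0.95, while Shmt2 was at -0.09 and Mthfd2 at 0.21. Of 20 aminoacyl tRNA synthetase genes, 2 rose (Qars by 0.38, Kars by 0.28) and 12 fell, among them Gars by 0.60, Mars by 0.55 and Tars by 0.54. In alpha cells, where 5.34% of all genes were called higher and 8.41% lower, 2 of 27 such targets rose and 12 fell, and 0 of 20 synthetases rose and 10 fell (edgeR, 1 higher at an unadjusted p under 0.05, and 0 by DESeq2, which gave no adjusted p for 2). In delta cells, where the shares were 2.46% and 4.23%, 0 of 25 targets rose and 8 fell. At an unadjusted p under 0.05, 3 were higher there, and DESeq2 called 0 higher but gave no adjusted p for 18 of the 25.

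The other branches of the unfolded protein response, run by IRE1 and ATF6, were counted in the same way. Of 20 of their targets, 18 rose, 0 fell (by edgeR, at an unadjusted p under 0.05 and by DESeq2) and 2 were not called in beta cells, with a median of 0.70, beside 19.5% of all genes higher and 20.1% lower. Derl3, an ER degradation factor, rose by 5.16 (SE 0.115, edgeR adjusted p = 1.46e-05), from 0.945 and 0.847 to 29.6 and 34.6 normalised CPM. Creld2 rose by 1.14 and Ssr3 by 0.88. In alpha cells 0 of 20 rose and 3 fell, beside 5.34% of all genes higher and 8.41% lower. In delta cells 0 of 19 rose and 10 fell, beside 2.46% higher and 4.23% lower. At an unadjusted p under 0.05, 2 were higher in alpha and 0 in delta cells, and DESeq2 called 0 higher in either but gave no adjusted p for 3 of 20 and 5 of 19. With library size only, the median of these targets in beta cells was 1.61, against 0.74 for the other ATF4 and CHOP targets, 0.83 for the translation control genes and 0.90 for all genes.

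Genes that respond to dissociation and to p53 were called in both directions in beta cells, at a share near or above the 39.5% of all genes. Of 18 immediate early genes, 4 rose, 3 fell and 11 were not called (Fosb rose by 0.90, Socs3 by 0.87 and Egr1 by 0.57, and Nr4a1 fell by 1.33, and by 0.41 when scaled by cell number). Of 12 p53 targets, 2 rose and 5 fell (Trp53inp1 rose by 0.94, and Aen fell by 0.81). Markers of other cell types were also read in beta cells. The 8 alpha cell markers summed to 61.3, 49.6, 71.5 and 31.5 UMIs per beta cell, and the 8 delta cell markers to 9.39, 9.78, 10.5 and 10.5. The 8 Schwann markers summed to 0.205, 0.169, 0.597 and 0.665 UMIs per beta cell, the 8 endothelial to 0.589, 0.662, 1.45 and 0.746, and the 8 macrophage markers to 1.65, 1.73, 1.96 and 2.51. Of the 7 Schwann markers tested, 4 rose and 1 fell. The ductal and acinar markers summed to 5.34, 6.10, 9.92 and 10.7 UMIs per beta cell, with Cpa1 or Prss2 or both at 0 in each library. Their part in the members' changes was not tested.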

How the data were processed

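The deposited tables give raw UMI counts, 1 table for each of the 4 libraries with a row per gene and a column per cell. Per the submitters' processing notes, Cell Ranger 3.0.0, the mm10 genome and Seurat 2.3.4 were used, with no order of steps given. How multimapping reads or free RNA were treated is not given in the sources used here. The members and all lists were chosen with earlier results of these data known.

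The UMIs of each class were added up within a library, and knockout was set against wild type in edgeR 4.0.16, run in R 4.3.3 (TMM scaling, filterByExpr, quasi-likelihood test, Benjamini-Hochberg adjustment over all genes tested, threshold 0.05). Normalised CPM are UMIs per 1000000 of the TMM-effective library size. For differences between classes the interaction of class and genotype was tested, blocked by library. Replicate libraries differed from each other by more than independent UMIs would (chi-square per degree of freedom 3.43 to 53.3). UMIs of a cell are not independent, so this cannot show whether the libraries came from separate animals. Each library was counted as 1 sample. In beta cells the TMM factors of the wild type libraries were 0.757 and 0.709, those of the knockout libraries 1.39 and 1.34. Each library had 1 to 27 cells with 8% to 10% insulin and 1 to 29 with 10% to 12%, on either side of the beta cell threshold.

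Named genes are the 10 members, the 3 called genes each way with the smallest adjusted p in beta cells of each list, and the 3 genes most like a member. Not all of these are printed. Alternatives were RLE scaling, library size only, cell number, DESeq2 1.42.0, limma-voom (limma 3.58.1), no low-count filter, a filter at a mean count of 20, leaving out the hormone genes, stricter classes, possible doublets left out, thinning, a 40% to 70% insulin share, each library left out and the replicate number as a block. Possible doublets had at least 3% of a second hormone, at least 4 of the 8 markers of a non-endocrine cell type, or UMIs in the top 5% of their class. No doublet caller was run. On simulated data with 200 genes changed by 1 on the log2 scale, 96.5% were recovered in beta, 94.5% in alpha and 85.0% in delta cells, with 8.10%, 5.03% and 3.95% false calls. For beta against alpha and beta against delta, 75.5% and 61.0% were recovered, with 2.58% and 6.15% false calls. The simulation did not change the insulin share and so does not test the scaling. Coordinates are from GENCODE vM21 (GRCm38), matched by symbol. Tables and figures were made with matplotlib 3.10.9, pandas 2.3.3, SciPy 1.17.1 and NumPy 2.4.6 in Python 3.11.15.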

Additional observations from a re-analysis of the deposited data

Results flagged for a closer look

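The genotype change of several members differed between classes of islet cell by an interaction test (edgeR, Benjamini-Hochberg adjusted over all genes). All of these differences were more positive in beta cells. Against alpha cells they were 0.76 for Ddit3, 0.53 for Atf3 (SE 0.163, edgeR adjusted p = 0.0374), 0.48 for Atf5, 0.95 for Chac1, 1.56 for Gdf15 and 0.84 for Eif4ebp1. Against delta cells they were 0.70 for Ddit3, 0.41 for Atf3 (SE 0.113, edgeR adjusted p = 0.0234), 0.76 for Atf5, 1.62 for Trib3, 0.62 for Chac1, 2.98 for Nupr1, 2.71 for Gdf15 and 0.85 for Eif4ebp1. The Atf3 differences were the least stable. Against alpha cells its difference was 0.34 without wild type replicate 1 (edgeR adjusted p = 0.241) and 0.44 without knockout replicate 2 (edgeR adjusted p = 0.127). Against delta cells it was 0.32 without wild type replicate 1 (edgeR adjusted p = 0.139) and 0.30 without knockout replicate 1 (edgeR adjusted p = 0.128).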

How the results depend on the processing

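Of 778 values of single members under the settings tried, 698 kept their direction and their side of the threshold, 28 lost a call, 19 gained one and 33 turned in sign, 17 of them when scaled by cell number, 9 with library size only, 1 in thinned cells and 6 without 1 library. In beta cells those that turned were Atf4 (0.44 with library size only, 0.45 by cell number), Atf3 (0.26 and 0.27), Chac1 (0.23 in both), Ppp1r15a (0.51 and 0.52) and Eif4ebp1 (0.28 in both). By cell number they were in alpha cells Atf4 0.30, Ddit3 0.55, Atf5 0.41, Trib3 0.47, Ppp1r15a 0.26 and Gdf15 0.71, and in delta cells Atf4 0.43, Ddit3 0.50, Atf5 0.0256, Ppp1r15a 0.51 and Nupr1 0.56. With library size only Gdf15 was at 0.16 in alpha and Nupr1 at 0.0311 in delta cells. For beta against delta with library size only, Ppp1r15a was at 0.52 and Atf4 at 0.55 (0.0171 by cell number). For beta against alpha Atf4 was at -0.0944 in thinned cells. With 1 library left out, members not called turned in sign within these ranges: Gdf15 in alpha cells -0.69 to 0.54, Ppp1r15a in delta cells -0.38 to 0.0915, Nupr1 in delta cells -0.38 to 0.26, and for beta against alpha Nupr1 -0.0879 to 1.08 and Atf4 -0.0043 to 0.0748. With library size only, all 10 members were called for beta against alpha. Of the other lists' genes, Eif2b3 (0.47), Eif2b5 (0.60), Eif2s1 (0.31), Gars (0.30), Mars (0.35), Tars (0.36), Mthfd2 (0.20), Bax (0.20), Aen (0.09), Maff (0.33), Cdkn1a (0.29) and Ier3 (0.26) turned with library size only (and by cell number).

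Genes called in beta cells numbered 6017, against 12966 with library size only (12687 higher), 13090 by cell number (12789 higher) and 3313 in thinned cells. With 1 library left out they numbered 3406 (without knockout replicate 2) to 5854, and 3746 without knockout replicate 1. Members called with 1 library left out numbered 6 to 9 in beta cells, 4 to 6 in alpha and 4 to 6 in delta cells, 5 to 7 for beta against alpha and 7 to 9 for beta against delta, where Ppp1r15a was gained without wild type replicate 2 (-0.38, edgeR adjusted p = 0.0380) and Atf4 without knockout replicate 1 (-0.26, edgeR adjusted p = 0.0485). DESeq2 called 3 in alpha cells, where 6 adjusted p were not given, and 1 in delta cells, where 5 were not given. The difference in members per beta cell, 1.60, was 1.70 unthinned and 0.66 without hormones. The difference in the median ratio of pairs, -0.14, was -0.20 at 2 or more UMIs and -0.09 without hormones. Ppp1r15a in beta cells missed the threshold in thinned cells (-0.24, edgeR adjusted p = 0.0946).

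Same-numbered libraries did not deviate together (r across genes 0.0167 in beta, 0.00239 in alpha and -0.038 in delta cells). This cannot exclude a pairing by number, which the labels do not state, and the main tests did not use one. With the replicate number as a block, 9 members were called in beta cells (Atf3 gained, -0.66, edgeR adjusted p = 0.000240), 7 in alpha and 6 in delta cells, and 6337 genes in beta cells. In each library the sparse members, such as Trib3 and Chac1 in alpha cells, are limited by depth.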
